A study of Mus musculus with 6 samples.

Results

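Glucocorticoid-induced genes were examined in the fat of mice without Kdm4b, which encodes an enzyme that strips methyl marks from histone H3. The group held 8 of the 18194 genes with a probe set of their own on the array: Hsd11b1, Fkbp5, Tsc22d3, Zbtb16, Sgk1, Ddit4, Mt1 and Mt2. They were chosen by name as genes widely used to read out glucocorticoid action, and every probe set annotated to only 1 of them was taken, 16 in all. The arrays came from male mice, wild type (WT) or lacking Kdm4b in the whole body (KO), and covered epididymal, subcutaneous and brown fat. All mice were 2 months old, ate chow at room temperature and were sampled after a 6 hour fast. There were 6 Affymetrix arrays, 1 for each combination of depot and genotype. The number of mice behind each RNA is not stated in the labels, nor whether 1 animal gave all 3 depots. No animal received a glucocorticoid according to the labels, and no hormone level was analysed here.

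Glucocorticoids act through the receptor encoded by Nr3c1, which waits in the cytoplasm on a chaperone complex, moves to the nucleus when it binds hormone, and switches genes on from paired hexamer sites in DNA. In fat these hormones shape fat cell formation, fuel release and the local immune response, and the tissue makes part of its own active hormone from an inactive precursor. The 8 genes cover several steps of this system. Hsd11b1 encodes the enzyme that regenerates active hormone inside the cell, and Fkbp5 encodes a co-chaperone that lowers the receptor's affinity for it. Tsc22d3 encodes the anti-inflammatory protein GILZ, Zbtb16 the transcription factor PLZF, Sgk1 a kinase, and Ddit4 the mTORC1 inhibitor REDD1. Mt1 and Mt2 encode metallothioneins, small metal-binding proteins that answer to zinc and oxidative stress as well as to the hormone.

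The promoters of 3 members are shown because they hold a paired glucocorticoid site or the repeated metal sites that metallothionein genes are known for. They come from RefSeq, assembly GRCm38.p6, in which 7 of the 8 genes were matched with 14 start sites. These coordinates belong to that assembly, and the build behind the array's own design is not known from the labels. Each line is the strand of transcription, the 250 bases before a start, on the plus strand of chr8:94172368-94172617 for Mt2, chr8:94178839-94179088 for Mt1 and chr10:21993640-21993889 for Sgk1. Capitals mark the metal response element core (TGCGCNC or TGCACNC, on either strand) in Mt2 and Mt1, and the glucocorticoid response element in Sgk1, which is AGAACA, any 3 bases, and its reverse complement TGTTCT.
Mt2: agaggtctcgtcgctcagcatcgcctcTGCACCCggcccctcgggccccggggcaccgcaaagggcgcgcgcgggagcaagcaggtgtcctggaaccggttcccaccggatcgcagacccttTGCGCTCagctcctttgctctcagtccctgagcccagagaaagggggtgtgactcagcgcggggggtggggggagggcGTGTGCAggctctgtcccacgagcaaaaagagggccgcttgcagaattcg
Mt1: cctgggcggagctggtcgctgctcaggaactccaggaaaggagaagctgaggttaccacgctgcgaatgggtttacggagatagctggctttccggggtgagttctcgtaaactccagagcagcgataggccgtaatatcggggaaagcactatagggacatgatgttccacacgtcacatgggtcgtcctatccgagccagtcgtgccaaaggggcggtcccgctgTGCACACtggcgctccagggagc
Sgk1: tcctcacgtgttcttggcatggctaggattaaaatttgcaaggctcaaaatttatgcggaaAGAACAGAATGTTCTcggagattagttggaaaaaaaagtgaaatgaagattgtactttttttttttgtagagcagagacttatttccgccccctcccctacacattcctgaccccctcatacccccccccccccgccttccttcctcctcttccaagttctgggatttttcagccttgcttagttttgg

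The motifs were searched on both strands from 250 bases before to 50 bases after each start. Mt2 held 4 matches to the metal core in that window, 3 of them printed above, and Mt1 held 3, of which 1 is printed and 2 lie just after the start. At least 3 such matches were found at 1.97% of all 32851 starts in the table, and at least 4 at 0.517%. Hsd11b1 and Ddit4 held 1 match each, 1 of 6 Sgk1 starts held 1, and Fkbp5 and Tsc22d3 held none. At least 1 match stood at 25.7% of all starts. The full glucocorticoid element was found at 1 of the 6 Sgk1 starts, 189 to 175 bases before it, and at 3 of the 32851 starts in the table, 0.00913%. Its hexamer AGAACA, which the full element contains on each strand, stood at 19.0% of all starts. Among the members it lay at 3 of the Sgk1 starts, including the one with the full element, and at 1 Tsc22d3 start. A match is a string of letters and not a measured binding site, and receptor sites outside these windows were not searched. Mt2 and Mt1 are neighbours on chromosome 8, where Mt2 lies between Mt3 and Mt1.

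Signals are MAS5 intensities, which the authors' software scaled to the same mean on every array. A floor was set at 63.2, the 40th percentile of all probe sets, and differences are log2 KO minus WT of signals raised to that floor. Each gene is described first by its brightest probe set. Without a second array per group there is no test inside a depot. The error quoted there is the SD of log2 differences among probe sets of the same gene, pooled over genes with 2 or more. It was 0.31 for epididymal, 0.32 for subcutaneous and 0.32 for brown fat, from 5363, 5676 and 5283 genes. Mt2, Sgk1, Hsd11b1 and Ddit4 had 1 probe set each, so for them the SD comes from other genes only. This SD does not contain the spread between mice. Over the depots, a limma model with terms for depot and genotype took all 6 arrays and 13233 genes. Its p-values were adjusted by the Benjamini-Hochberg method and called under 0.05. For KO against WT the depots stood in for replicates, and for comparisons between depots the WT and KO arrays did.

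Between 12639 and 13594 genes lay above the floor on each array. The signal of Kdm4b was lower in KO in each depot, from 227 to 188, from 272 to 157 and from 135 to 95.2. The ratio of the 3' to the 5' Gapdh control probe sets, a reading of RNA integrity, was 0.90 to 0.94 on the WT arrays and 0.79 to 0.82 on the KO arrays, so the genotypes did not overlap. The same ratio for Actb was 2.19, 1.86 and 2.69 on the WT and 1.55, 1.53 and 2.74 on the KO arrays of epididymal, subcutaneous and brown fat, which overlapped. The part of these ratios in the results below was not tested. Brown fat carried its defining marker Ucp1 at signals of 44367 and 40619, against 1428 to 6649 in the white depots. Markers of other tissues and cells differed between the arrays of a depot. All 18 muscle markers were lower in brown KO fat, where their summed signal was 34739.9 in WT and 9911 in KO. The sums were 10971 and 7231 in epididymal fat, with 17 of 18 markers lower, and 86299.9 and 99224.5 in subcutaneous fat, with 14 of 18 higher. None of the 18 was below the floor on both arrays of a depot. Seminal vesicle markers, from a gland that lies by the epididymal fat, were 4 of 5 lower in epididymal, 5 of 5 lower in subcutaneous and 5 of 5 higher in brown KO fat, with medians of -0.59, -2.34 and 0.47. Their summed signals were 4639 and 3346, 8618 and 1843, and 2109 and 2775. In such bulk tissue, fewer cells of a type and less RNA per cell cannot be told apart.

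KO and WT fat differed in few of these genes by a wide margin, and the depots did not move alike. The metallothionein Mt2 was the one member higher in KO in all 3 depots. Subcutaneous fat was the depot in which most members were higher, 7 of 8, with a median difference of 0.48, beside 54.7% of all genes higher there. Between the same 2 arrays the seminal vesicle markers were 5 of 5 lower, the fibroblast markers 7 of 7 lower, at a median of -0.38 and summed signals of 60794 in WT and 48871 in KO, and the macrophage markers 8 of 8 lower, at a median of -0.50. Their part in the members' values was not tested. In epididymal fat 4 members were higher and 4 lower, beside 46.7% of all genes higher. In brown fat 3 were higher and 5 lower, beside 46.4%. With median centring 4, 6 and 5 of 8 members were higher in epididymal, subcutaneous and brown fat. Under quantile normalization the counts were 4, 7 and 4. Fkbp5 and Zbtb16 took opposite directions in different depots.

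**Figure D1:**
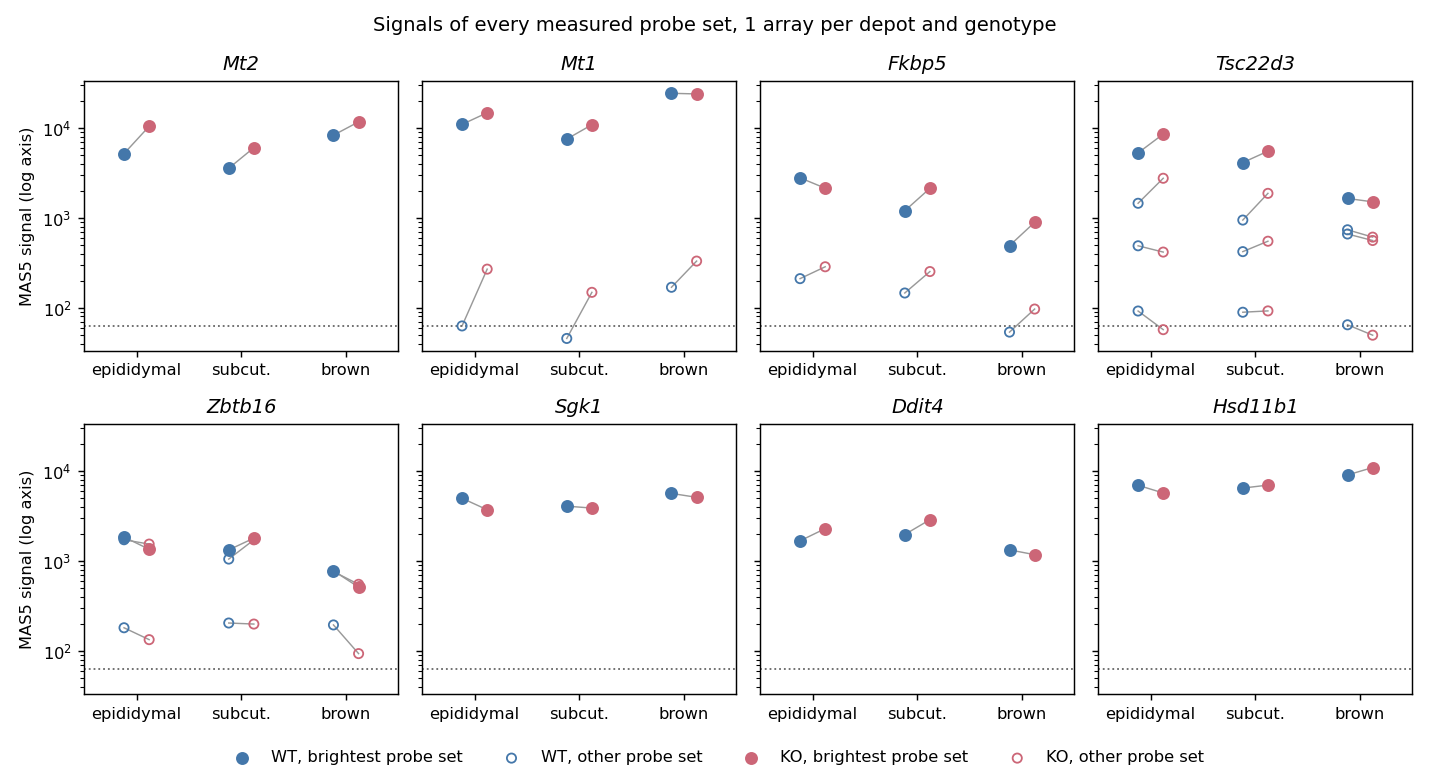
MAS5 signal (log axis) of every measured probe set of the 8 genes on the WT and KO array of each depot, with filled points for the brightest probe set, open points for the others and a dotted line at the floor of 63.2. Mt2 is higher in KO in all 3 depots, while Fkbp5 and Zbtb16 cross between depots.

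Past 2-fold, the epididymal count was 1 of 8, Mt2, where 2.28% of the 13225 genes measured there passed that size. The counts were 0 of 8 in subcutaneous fat, where 2.92% of 13857 genes passed, and 0 of 8 in brown fat, where 3.53% of 13779 passed. Differences beyond the SD between probe sets were more frequent. In subcutaneous fat 6 members were higher by more than that SD and 0 were lower, beside 19.4% of all genes higher and 12.7% lower. In epididymal fat 4 were higher and 3 lower, beside 14.5% and 19.2%. In brown fat Fkbp5 and Mt2 were higher and Zbtb16 lower, beside 13.6% and 20% of all genes.

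For the members the median difference was 0.07, 0.48 and -0.07 in epididymal, subcutaneous and brown fat, beside -0.02, 0.04 and -0.03 for all measured genes. Centring each array on its own median moved the all-gene medians to 0.11, -0.12 and 0.11 and the members' medians to 0.21, 0.33 and 0.06. Probe sets whose names end in _a_at, _s_at or _x_at can match several transcripts, which for _a_at are those of the same gene. Without them Tsc22d3 and Mt1 were read from fainter sets, and the members' median was -0.33 in epididymal and 0.12 in brown fat. The subcutaneous median kept its sign under these changes, and those of the other depots did not.

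**Figure D2:**
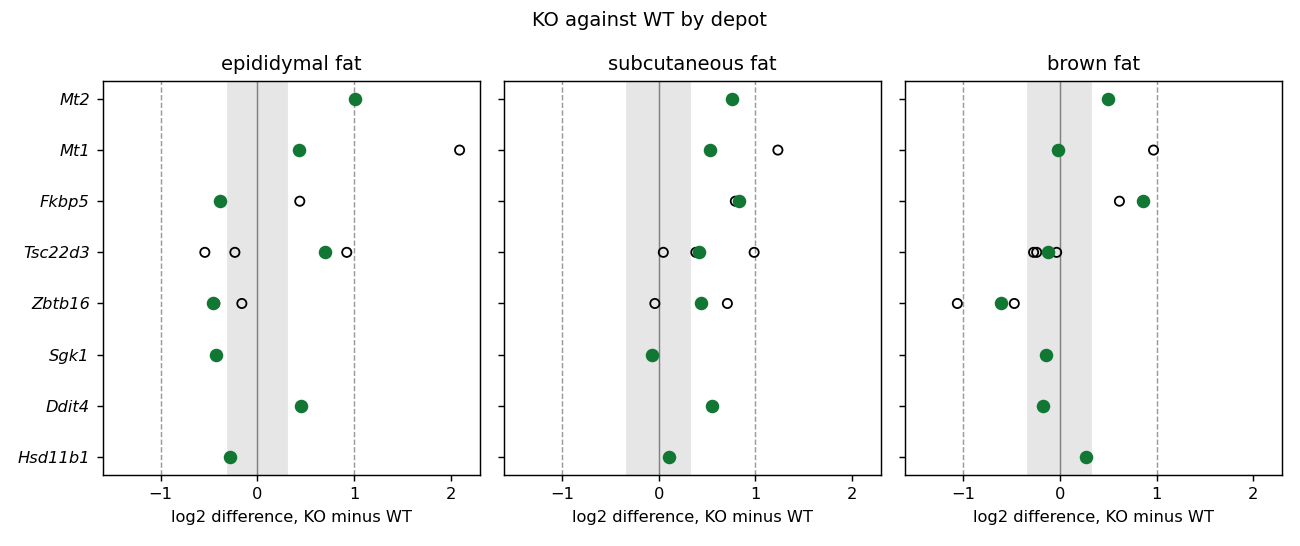
Log2 difference, KO minus WT, of each gene in the 3 depots, with filled points for the brightest probe set and open points for the others. In subcutaneous fat 7 of 8 filled points lie above 0, and in epididymal and brown fat they lie on both sides.

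Hsd11b1 regenerates the active hormone, and it differed little by genotype. Its signal was 6963 in WT and 5718 in KO epididymal fat, 6482 and 6997 in subcutaneous fat, and 9069.7 and 10967 in brown fat. It was therefore lower in KO in epididymal fat and higher in the others, with differences of -0.28, 0.11 and 0.27, each within the SD between probe sets. The limma difference over depots was 0.03 ± 0.15 (SE; adjusted p = 0.964).

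Fkbp5, the co-chaperone, gave signals of 2786 in WT and 2139 in KO epididymal fat, 1198 and 2130 in subcutaneous fat, and 491 and 891 in brown fat. It was lower in KO in the first depot, at -0.38, and higher in the others, at 0.83 and 0.86. In brown fat 1.84% of measured genes were higher by at least as much. Its second probe set did not share that split: it read 211 and 286, 146 and 253, and 53.6 and 96.7, which is 0.44, 0.79 and at least 0.62 higher in KO. The third probe set never rose above the floor and read 0.524 to 18.5. The epididymal direction of Fkbp5 thus differed between its probe sets. Over depots limma gave 0.44 ± 0.28 for the brighter one (adjusted p = 0.675). For the dimmer one, in the fit over all probe sets, it gave 0.62 ± 0.14 (unadjusted p = 0.0059, adjusted p = 0.457).

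Tsc22d3, which encodes GILZ, gave signals of 5276 in WT and 8552 in KO epididymal fat, 4120.2 and 5517 in subcutaneous fat, and 1643 and 1507 in brown fat. It was higher in KO in both white depots, by 0.70 and 0.42, and -0.12 in brown fat lay within the SD. Its 4 probe sets did not go one way. The next brightest differed by 0.92, 0.99 and -0.27, the third by -0.23, 0.38 and -0.24, and the faintest, near the floor, by -0.54, 0.05 and -0.03. All 4 were higher in KO in subcutaneous fat and lower in brown fat, and in epididymal fat they were split, with 2 higher. Centring on array medians brought the brown value of the brightest to 0.01. limma gave 0.33 ± 0.19 over depots (adjusted p = 0.658).

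Zbtb16, which encodes PLZF, gave signals of 1850.3 in WT and 1351 in KO epididymal fat, 1332 and 1798 in subcutaneous fat, and 780.0 and 512 in brown fat. It was lower in KO in epididymal and brown fat, at -0.45 and -0.61, and higher in subcutaneous fat, at 0.43. A second probe set followed that order with -0.16, 0.71 and -0.47. The third, much fainter, differed by -0.44, -0.04 and -1.06, and its brown signals, 195 in WT and 93.4 in KO, gave the one probe set value past 2-fold among the 15 measured in brown fat. limma gave -0.21 ± 0.23 over depots (adjusted p = 0.804).

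Sgk1, the kinase whose promoter above holds the full glucocorticoid element, gave signals of 4994 in WT and 3721 in KO epididymal fat, 4081 and 3885 in subcutaneous fat, and 5654 and 5116 in brown fat. It was lower in KO in all 3 depots, at -0.42, -0.07 and -0.14, and the epididymal value alone exceeded the SD. Of the 12157 genes measured in every depot, 17.2% were lower in all 3. limma gave -0.21 ± 0.13 (adjusted p = 0.664).

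Ddit4, the mTORC1 inhibitor, gave signals of 1679 in WT and 2295 in KO epididymal fat, 1974 and 2884 in subcutaneous fat, and 1332 and 1177 in brown fat. It was higher in KO in both white depots, by 0.45 and 0.55, and -0.18 in brown fat lay within the SD. limma gave 0.27 ± 0.18 over depots (adjusted p = 0.682).

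Mt2 gave signals of 5182 in WT and 10436 in KO epididymal fat, 3559 and 6033 in subcutaneous fat, and 8307 and 11686 in brown fat. The KO array was the brighter one in each depot, by 2.01-fold, 1.70-fold and 1.41-fold, and each difference (1.01, 0.76 and 0.49) exceeded the SD between probe sets. At least as large an increase was seen in 0.832%, 4.67% and 6.80% of the genes measured in the respective depot. The mean over depots was 0.75 ± 0.26 (SD, n = 3 depots). Of the 12157 genes measured in all 3 depots, 16.2% were higher in KO in each of them, and 0.477%, which is 58 genes, were higher by at least 1.4-fold in each, a size chosen after the Mt2 values were seen. limma gave 0.75 ± 0.14 (SE; unadjusted p = 0.00328), and the adjusted p of 0.460 missed the threshold.

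Mt1 was represented by a probe set that can also bind related transcripts. It gave signals of 10950 in WT and 14769 in KO epididymal fat, 7521 and 10862 in subcutaneous fat, and 24299 and 23897 in brown fat. It was higher in KO in both white depots, by 0.43 and 0.53, and did not differ in brown fat beyond the SD, at -0.02, a sign that turned to 0.06 and 0.11 under quantile normalization and median centring. Its second, much fainter probe set read 62.7 and 269 in epididymal fat, at least 4.26-fold higher in KO. It read 45.6 and 148 in subcutaneous fat, at least 2.35-fold higher, and 169 and 330.5 in brown fat, 1.96-fold higher. Over depots limma gave 0.31 ± 0.15 for the bright probe set (adjusted p = 0.634) and 1.43 ± 0.24 for the faint one in the fit over all probe sets (unadjusted p = 0.00158, adjusted p = 0.457). The sequences of Mt1 and Mt2 are alike, so hybridisation between them cannot be told apart from their own signals here.

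Over depots, limma called 0 of the 8 members between KO and WT, and it called 0% of the 13233 genes tested. Mt2 was the single member with an unadjusted p under 0.05, as were 8.33% of all genes. When the variance was allowed to follow intensity, 1 member was called, Mt2 (adjusted p = 0.0397), beside 0.249% of all genes. The adjusted p of Mt2 ranged from 0.0397 to 0.873 over the alternatives, and its difference was positive in each of them.

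Brown and white fat differed in more of the members than the genotypes did, as was also the case over all genes. In the same fit 7 of 8 members differed between brown and white fat, beside 52.6% of all genes tested. The 2 metallothioneins and Hsd11b1 were higher in brown fat, as were 21.6% of all genes, and Fkbp5, Tsc22d3, Zbtb16 and Ddit4 were lower, as were 31.1%. For all 8 genes the direction was the same when only WT arrays or only KO arrays were compared.

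Tsc22d3 had the largest gap between brown and white fat, -1.85 ± 0.20 (SE) or 3.60-fold lower in brown (adjusted p = 0.0016). Fkbp5 was 2.99-fold lower, -1.58 ± 0.30 (adjusted p = 0.00936), and Zbtb16 was 2.47-fold lower, -1.31 ± 0.25 (adjusted p = 0.00935). In the limma fit over all probe sets, the second Zbtb16 set was 2.28-fold lower (adjusted p = 0.0178). The faintest was 1.31-fold lower and missed the threshold (adjusted p = 0.222). Ddit4 was 1.73-fold lower, -0.79 ± 0.19 (adjusted p = 0.0211). Among the genes that were higher, Mt1 led with 1.17 ± 0.16 or 2.25-fold (adjusted p = 0.00358), followed by Mt2 with 0.76 ± 0.15 or 1.69-fold (adjusted p = 0.0121) and Hsd11b1 with 0.61 ± 0.16 or 1.53-fold (adjusted p = 0.0270). Sgk1 was 0.38 ± 0.14 higher and missed the threshold (adjusted p = 0.0705).

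The gap was not the same size in both genotypes. For Tsc22d3 it was -1.50 among WT and -2.19 among KO arrays, for Ddit4 -0.45 and -1.13, and for Zbtb16 -1.01 and -1.61. For Fkbp5 it was larger in WT, -1.90 against -1.26, as it was for Mt1, 1.42 against 0.92. With 1 array per cell of the design these differences between genotypes were not tested. The probe sets of Tsc22d3 also disagreed: the next brightest was 2.43-fold lower in brown fat (adjusted p = 0.0202), the third was 1.31-fold higher (adjusted p = 0.151), and the faintest was 1.30-fold lower (adjusted p = 0.139). The faintest is the one that remains without sets ending in _a_at, _s_at or _x_at. There Tsc22d3 was not called (-0.38, adjusted p = 0.122). The brightest and next brightest end in _a_at, which marks a match to several transcripts of the same gene.

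Macrophage markers were lower in brown than in white fat for 8 of 8 tested, and fibroblast markers for 7 of 7. Their part in the brown and white gap was not tested. The call depended on single arrays: fewer members were called without the brown KO, brown WT, epididymal KO or subcutaneous WT array. The share of all genes called in those fits is not given, so a loss of power over all genes cannot be told apart from a change in the members. With any array left out, the difference kept its direction for each member. It ranged from -2.19 to -1.50 for Tsc22d3 and from 0.30 to 0.46 for Sgk1. Without the filter on low signals 2 members were called, Tsc22d3 and Mt1, beside 4947 of 18194 genes, and without the floor the same 2, beside 4662 of 18189.

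**Figure D3:**
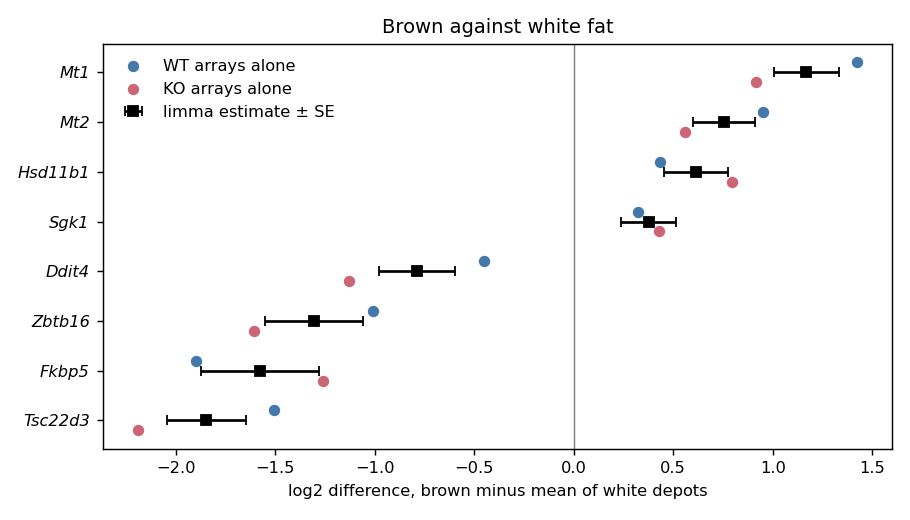
Log2 difference between brown fat and the mean of the white depots for each gene, with squares for the limma estimate and bars for its SE over 6 arrays, and points for the WT and the KO arrays alone. Tsc22d3, Fkbp5, Zbtb16 and Ddit4 lie below 0 and the other 4 genes above it, in both genotypes.

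The white depots differed less. limma called 0 of 8 members between subcutaneous and epididymal fat, beside 5.04% of all genes, and Mt2 and Mt1 had unadjusted p-values under 0.05, as did 21.6% of all genes. Mt2 differed by -0.67 ± 0.18 (adjusted p = 0.118) and Mt1 by -0.49 ± 0.19 (adjusted p = 0.224). Fkbp5 differed by -0.61 ± 0.34, which averages -1.22 among WT arrays with -0.01 among KO arrays. Zbtb16 differed by -0.47 in WT and 0.41 in KO. With an intensity trend in the variance Mt2 was called (adjusted p = 0.0150), beside 9.76% of all genes. With median centring 4 members were called, Fkbp5, Tsc22d3, Mt1 and Mt2, all lower in subcutaneous fat, beside 14.5% of all genes.

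The order of the 3 depots by signal was the same in both genotypes for 5 of the 8 genes, Fkbp5, Tsc22d3, Mt1, Mt2 and Ddit4. In WT fat the order from high to low was epididymal, subcutaneous and brown for Fkbp5, Tsc22d3 and Zbtb16. It was brown, epididymal and subcutaneous for Mt1, Mt2, Sgk1 and Hsd11b1, and subcutaneous, epididymal and brown for Ddit4. In KO fat the white depots changed places for Zbtb16, Sgk1 and Hsd11b1, and brown fat kept its place. The epididymal and subcutaneous levels were not separated for any of the 8 in the limma fit on the deposited scale without an intensity trend.

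Counts for 9 further gene lists follow, in the order epididymal, subcutaneous and brown fat. Of their 27 medians, 17 kept their sign when arrays were centred on their medians and 26 under quantile normalization. Of the 10 signs that turned with centring, 3 were those of the members' relatives, in all 3 depots. In epididymal fat those of metal handling genes and of mTORC1 and SGK partners turned as well. In subcutaneous fat those of the clock, activation, repressed inflammatory, immediate early and other induced genes turned. The repressed inflammatory genes in subcutaneous fat also turned under quantile normalization.

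The receptor and its chaperones, the step upstream of all members, held no gene past 2-fold between genotypes. Of 9 measured genes 5, 4 and 6 were higher in KO in epididymal, subcutaneous and brown fat, with medians of 0.03, -0.03 and 0.08. With median centring 8, 0 and 7 of 9 were higher, with medians of 0.16, -0.18 and 0.22. Nr3c1, the receptor itself, had signals of 3634 and 2856, 3543 and 2752.5, and 2156 and 1919, so KO was the lower array in each depot, at -0.35, -0.36 and -0.17. Hspa8, a chaperone of the complex, differed by -0.82 in brown fat, and Hsp90aa1 was higher by 0.34, 0.05 and 0.48. limma called 0 of 9 by genotype, with 0 at an unadjusted p under 0.05. Between brown and white fat it called Nr3c1 lower, at -0.64 (adjusted p = 0.0104), and Bag1, Fkbp4 and Hsp90aa1 higher. Of all genes tested, 31.1% were called lower there and 21.6% higher.

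Genes of hormone activation, clearance and export other than Hsd11b1 were measured in 6, 6 and 5 members, of which 2, 3 and 1 were higher in KO, or 2, 2 and 1 with median centring. Their medians were -0.22, 0.01 and -0.29, and 0 passed 2-fold. Hsd11b2, which inactivates the hormone, was faint, at 101 and 153 in epididymal and 130 and 154 in subcutaneous fat, and below the floor in brown fat. H6pd, which supplies the cofactor of Hsd11b1, was lower in subcutaneous than in epididymal fat, at -0.92 (limma, adjusted p = 0.0436). Abcb1b, a transporter that exports steroids among other compounds, was lower there too, at -0.80 (adjusted p = 0.0465). It was also lower in brown than in white fat, at -2.24 (adjusted p = 0.000438). Of the 6 tested, limma called 2 between the white depots, beside 5.04% of all genes. Between brown and white fat it called 1 higher and 4 lower, beside 21.6% and 31.1% of all genes.

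Other glucocorticoid-induced genes were measured in 25, 26 and 25 members, of which 8, 14 and 11 were higher in KO, with medians of -0.15, 0.02 and -0.14. By any amount 46.7%, 54.7% and 46.4% of all genes were higher. With median centring the counts were 12, 8 and 12. The cell cycle inhibitor Cdkn1a was 3.24-fold higher in epididymal fat, from 909 to 2943, and 2.40-fold higher in subcutaneous fat, and Lcn2 was 2.48-fold lower in epididymal fat. Lcn2 was at least 2.00-fold higher in subcutaneous fat, where Trim63, a ligase gene of muscle, was 2.09-fold higher beside the muscle markers given above. In brown fat the phosphatase gene Dusp1 was 2.29-fold higher, from 2772 to 6341, and the transcription factor Klf15 was 2.08-fold lower, from 1775 to 853. limma called 0 of 26 by genotype, 4 of them at an unadjusted p under 0.05, Cdkn1a, Klf15, Fbxo32 and Mertk.

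Inflammatory genes that glucocorticoids repress were all lower in brown KO fat, 9 of 9 measured, with a median of -0.54 (9 of 10 with median centring). Mmp9 was 2.75-fold lower there, from 345 to 125. In epididymal fat 6 of 11 were higher, and the chemokines Ccl2 and Ccl7 were 2.28-fold and 2.05-fold higher. The subcutaneous count was 6 of 11 higher, at a median of 0.05, or 4 of 10 with median centring, at -0.20. Macrophage markers ran beside these counts: 8 of 8 were higher in epididymal KO fat (7 of 8 under quantile normalization), 8 of 8 lower in subcutaneous and 7 of 7 lower in brown KO fat. Their summed signals were 33916 and 37600.4, 42136 and 32433, and 8673 and 6604, and their part in the result was not tested. limma called 0 of 10 by genotype, with 3 at an unadjusted p under 0.05.

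Metal handling genes were set beside the metallothioneins. Of 7, 6 and 7 measured, 3, 3 and 2 were higher in KO, or 4, 0 and 3 with median centring, with medians of -0.10 (0.03 with median centring), -0.12 and -0.22, while Mt2 was higher in all 3 depots under each scaling. Mtf1, the factor that binds the metal element, differed by -0.25, 0.12 and -0.07. Hmox1, a heme-degrading enzyme of the stress response, was 2.85-fold higher in brown KO fat, from 88.2 to 252. limma called 0 of 7 by genotype, with 0 at an unadjusted p under 0.05.

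Genes of the mTORC1 pathway and partners of SGK kinases, taken as 1 list, gave 5, 6 and 8 of 14 higher in KO, and 9, 3 and 9 with median centring. Sesn2, another stress-induced inhibitor of mTORC1, was 2.27-fold lower in epididymal KO fat, from 339 to 149.7, and differed by -0.31 and -0.58 in the other depots. Relatives of the members gave 6, 13 and 8 of 17 higher, and 9, 7 and 11 with median centring. Tsc22d2, of the Tsc22d3 family, was higher by 0.94, 0.51 and 0.24, with signals of 893 and 1718 in epididymal fat. Sgk2, a kinase of the Sgk1 family, was 2.15-fold lower in brown KO fat, from 1884 to 874. limma called 0 of 14 partners and 0 of 18 relatives by genotype, with 1 and 2 at an unadjusted p under 0.05.

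Clock genes and immediate early genes respond to the hormone and to the time and handling of sampling, which the labels do not give. Of 15, 16 and 14 clock genes 4, 13 and 3 were higher in KO, with medians of -0.27, 0.11 and -0.19. Dbp, an output gene of the clock, differed by -0.79, -0.25 and -0.43, and was among the 3 of 16 that were lower in subcutaneous KO fat. Cry1 was 2.06-fold higher in that depot, from 254 to 524, and differed by -0.46 in epididymal and -0.35 in brown fat. With median centring 5 of 15, 6 of 14 and 5 of 14 clock genes were higher. Of 19, 18 and 16 immediate early genes 10, 12 and 13 were higher, and 13, 5 and 14 with median centring. In brown fat Fos and Egr1 were 1.55 and 1.45 higher on the log2 scale, and Nr4a3 differed by -3.70, from 1726 to 133. limma called 0 of 14 clock and 0 of 18 immediate early genes by genotype, with 2 at an unadjusted p under 0.05 in each list.

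**Figure D4:**
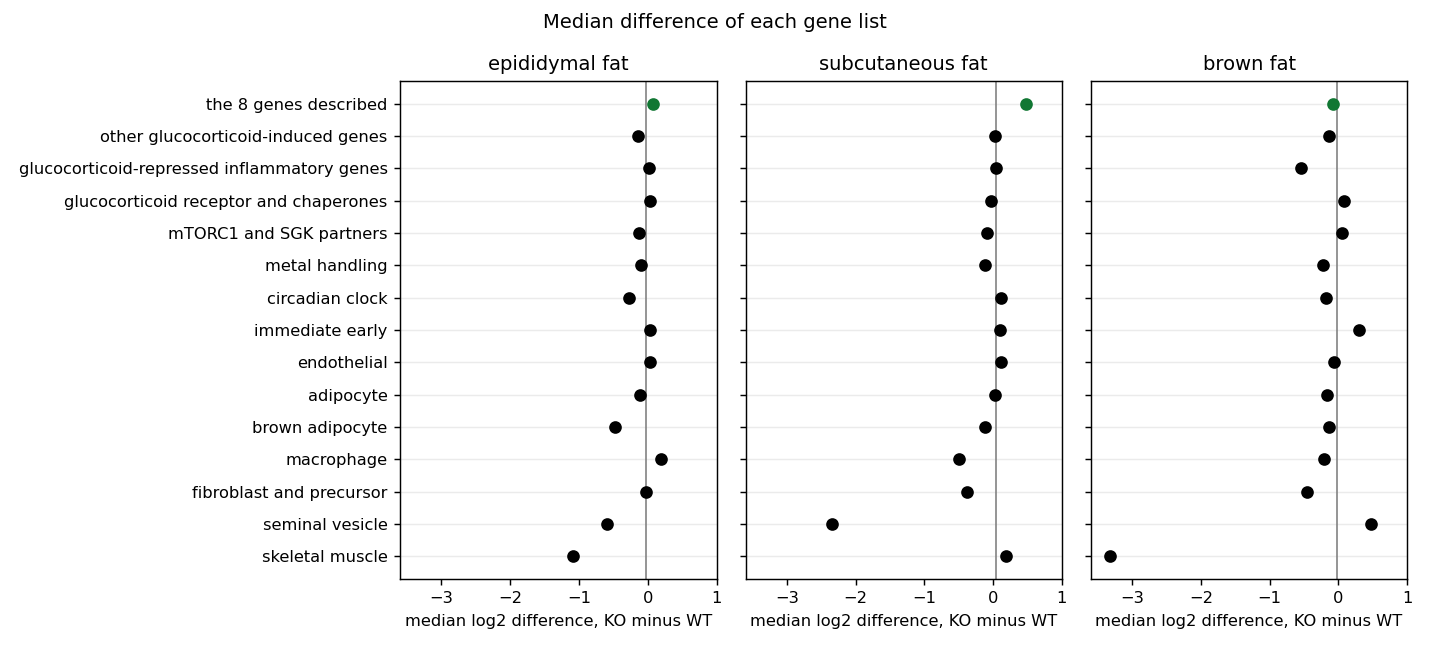
Median log2 difference, KO minus WT, of the 8 members and of the gene and marker lists named on the axis, in the 3 depots. A grey line stands at the median of all measured genes. The lists of hormone activation genes and of the members' relatives, and some marker lists, are not drawn. The members' median stands at 0.48 in subcutaneous fat, and skeletal muscle markers stand at -3.32 in brown fat.

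Genes with the pattern most like each member were found by the root mean square distance between log2 signals over the 6 arrays, each centred on its own mean, among 10492 genes above the floor on every array. Nearest to Mt2 were Hsd17b7 at 0.118, Fhl1 at 0.186 and Ptger3 at 0.193. Nearest to Mt1 were Sdhaf4, Bphl and Pwwp2b at 0.0660 to 0.0714. Fkbp5 lay nearest to Pam at 0.147, Tsc22d3 to Ppic at 0.122, Zbtb16 to Dhtkd1 at 0.132 and Ddit4 to Klf14 at 0.0939. Sgk1 lay nearest to Osbpl11 at 0.0285 and Hsd11b1 to Cul2 at 0.0572. Among pairs of members, the closest were Sgk1 with Hsd11b1 at 0.197 and Mt1 with Mt2 at 0.312. The farthest pair was Tsc22d3 with Mt1 at 1.42. The nearest genes were picked from 10492 candidates and the pairs from the members alone. Setting pair distances beside nearest-gene distances therefore cannot show whether the members move together. A gene that varies little lies close to many others, so these distances are not comparable between members.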

How the data were processed

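Total RNA was labelled with biotin and hybridised to 6 Affymetrix arrays, 1 per depot and genotype. The deposited intensity values come from MAS5 in Affymetrix Expression Console, per the submitters' processing notes; no version is given there. The 2%-trimmed mean of the deposited intensities was 500.0 on every array, so a change in total RNA cannot be seen. Names came from 34945 probe sets with 1 symbol in the platform annotation plus control probe sets of named genes.

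The brightest probe set (mean log2 signal over arrays) stood for a gene, which was measured in a depot if 1 of its arrays exceeded the floor. limma 3.58.1 in R 4.3.3 tested genes that exceeded the floor on 3 or more arrays, after the fit was tested on simulated data. Its p-values reflect how alike the genotype differences are across depots, or the depot differences across genotypes, and not the spread between mice. Other steps ran in Python 3.11.15 (pandas 2.3.3, numpy 2.4.6, with figures in matplotlib 3.10.9). The members and lists were chosen with earlier results of these data known. All 8 members are named, and of each list up to 4 genes with the largest mean difference, any past 2-fold where 5 or fewer were, and the 3 genes most like each member. H6pd, Bag1, Fkbp4, Fbxo32 and Mertk were named after their values were seen. With so few arrays the precision of each value is low.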

Additional observations from a re-analysis of the deposited data

Results flagged for a closer look

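The genotype difference of Fkbp5 ran in opposite directions between depots, lower in KO in epididymal fat and higher in the others. The subcutaneous difference exceeded the epididymal one by 1.21 and the brown difference exceeded it by 1.24, on the log2 scale. The second Fkbp5 probe set did not show the reversal. Zbtb16 was higher in KO in subcutaneous fat and lower in the other depots, a gap of 0.89 to epididymal and 1.04 to brown fat. With 1 array per group neither difference between depots was tested, and 11.7% of the genes measured in all 3 depots also differed beyond the SD between probe sets in opposite directions in a pair of depots.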

How the results depend on the processing

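With the threshold at 1.5-fold instead of 2-fold, 2, 2 and 2 members passed in epididymal, subcutaneous and brown fat. At 3-fold 0 passed in epididymal fat. The count past 2-fold was 2 in epididymal fat with the mean of all probe sets. Without the sets ending in _a_at, _s_at or _x_at it was 2 in epididymal and 1 in subcutaneous fat, and the epididymal median was -0.33. The shares of all genes at these other sizes and settings are not given, so these counts have no background to be read against. With an intensity trend limma called 1 member by genotype and 1 between subcutaneous and epididymal fat, and with median centring 4 in the latter. Brown against white fat gave 2 calls without filter and 2 without floor. Leaving out an array or a depot gave 0 to 0 calls by genotype, 4 to 7 for brown against white and 0 to 0 between white depots. Signs turned for Hsd11b1 by genotype under quantile normalization (-4.306e-05). They turned for Tsc22d3 without the sets ending in _a_at, _s_at or _x_at, by genotype (-0.18) and between white depots (0.25). Between white depots they also turned for Hsd11b1 (-0.25) and Ddit4 (-0.0603) under median centring and for Zbtb16 (0.0218) with the mean of probe sets. With an array or depot left out, the white depot difference ranged from -1.23 to 0.0021 for Fkbp5, -0.27 to 0.0439 for Sgk1, -0.51 to 0.45 for Zbtb16 and -0.14 to 0.33 for Hsd11b1, and the genotype difference of Hsd11b1 from -0.0869 to 0.19. The cause of these changes was not tested. The limma fit already compares KO with WT within depots, and no replicate block was added because the labels give no replicate number. Faint probe sets near the floor limit the Mt1, Fkbp5, Tsc22d3 and Zbtb16 values read from them.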
